A study of Mus musculus with 22 samples.

Results

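RNA-seq counts from 10 of the 22 tumours of the series were used to describe the effect of benzo[a]pyrene (BAP) in mouse oral tumours without Keap1: 5 tumours initiated with BAP and 5 initiated without it. The libraries were chosen by genotype and treatment label alone. All 10 tumours carried the alleles Krt5CreER-T2/+, Trp53fl/fl, Keap1fl/fl and a Cre-activated PIK3CA(H1047R) transgene on both copies of Rosa26, and all were started by local injection of 4-hydroxytamoxifen into the cheek lining. The Keap1-deleted BAP group received BAP with this injection, and the Keap1-deleted untreated group did not. The 12 remaining tumours, 6 Keap1-wildtype BAP and 6 Keap1-wildtype untreated, had the same Krt5-driven Cre, Trp53 and PIK3CA alleles with normal Keap1. Their levels are given only for Keap1 itself and where the responses of the genotypes were compared. They also entered the edgeR model, so the gene filter, scaling and estimate of spread behind every call drew on all 22 libraries. Recombination was limited to cells that expressed the Krt5-driven Cre at injection, and RNA came from whole pulverised tumours, so other cells contributed to every value. The labels give no age, sex, dose of BAP or time to harvest, and do not say that tumours of a group came from separate animals, so p-values measure the spread between these samples.

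KEAP1 is the adaptor of a ubiquitin ligase that marks the transcription factor NRF2, product of Nfe2l2, for degradation. Cells without KEAP1 accumulate NRF2 and raise genes of glutathione synthesis, NADPH supply and detoxification. BAP is a polycyclic hydrocarbon of tobacco smoke that binds the aryl hydrocarbon receptor (AHR), which induces CYP1 enzymes, and these convert BAP into metabolites that form DNA adducts. NRF2 targets include several enzymes that conjugate such metabolites. In stratified oral epithelium, basal cells marked by KRT5, KRT14 and the factor p63 give rise to suprabasal cells, which make desmosomes, cornified envelope proteins and barrier proteases.

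The 10 libraries held between 29235010 and 39784402 counts in the BAP group and between 32000650 and 39862777 in the untreated group. Levels below are CPM, each count as a part of the TMM-scaled library total brought to a common size, and per-library values are given for tumours 1 to 5 of a group in deposition order. Keap1 stood at 29.8, 65.6, 9.45, 32.2 and 15.0 CPM in the libraries labelled Keap1-deleted BAP, against 22.2, 30.0, 36.4, 32.2 and 23.5 CPM in those labelled Keap1-deleted untreated. Keap1-wildtype libraries ranged from 45.8 to 78.9 CPM, so the library labelled Keap1-deleted BAP 2 lay within the Keap1-wildtype range. A count summed over a gene does not show which exons were removed. The log2 fold change of Keap1 was 0.07 (SE 0.33, two-sided exact permutation p = 0.9286 over 10 libraries), and -0.42 without the library labelled BAP 2. Nfe2l2 stood at 80.4, 89.2, 92.8, 80.2 and 91.4 CPM in BAP tumours, against 146, 162, 77.8, 107 and 201 CPM in untreated tumours. The groups overlapped only through untreated 3 (exact permutation p = 0.04762, where 0.00794 is the smallest possible), and Nfe2l2 was not called in edgeR across all genes (log2 fold change -0.68, adjusted p = 0.262). Trp53 reached 110 CPM in BAP 3 against 11.9 to 24.9 CPM in the other 9 libraries, which gave a log2 fold change of 0.79 with BAP 3 and -0.22 without it (exact permutation p = 0.8016). Pik3ca differed by -0.20 (exact permutation p = 0.1587).

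Squamous identity differed between libraries. The summed level of 16 tested basal keratinocyte markers was 1582, 1836, 1181, 366 and 1919 CPM in BAP tumours, against 24794, 14861, 2540, 4681 and 28607 CPM in untreated tumours. All BAP sums lay below all untreated sums, and untreated 3 and untreated 4 lay nearest to the BAP group. BAP 4 held the least, with Krt5 at 1.80 CPM and Krt14 at 13.0 CPM, so the squamous carcinoma label of this library had little support among its defining markers. In a principal component analysis of the 10 libraries, the first component (44.15% of variance) placed BAP tumours at -79.9, -39.6, -27.8, -149.9 and -69.0 and untreated tumours at 148, 96.3, -29.0, 12.4 and 139, so that untreated 3 lay inside the BAP range. In bulk tissue, fewer keratinocytes and less keratinocyte RNA per cell cannot be told apart.

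Far more genes were lower than higher with BAP. In the edgeR quasi-likelihood test over 19202 genes, 991 genes fell (5.16% of those tested) and 181 rose (0.943%) at a Benjamini-Hochberg adjusted p under 0.05, 6.1% called in either direction. The log2 fold change had a median of -0.02 over all genes tested. With library totals as the only scaling that median was 0.13 and the split was 755 fallen and 275 risen genes, so rises made up 26.7% of calls, against 15.44% with TMM. Across all genes, the 5 BAP libraries lay wholly below the 5 untreated libraries for 3.54% and wholly above them for 2.4%. The call counts rested on single libraries: 161 genes fell without untreated 1, 164 without untreated 5 and 183 without BAP 4, while 20 rose without untreated 1. In a fit of the 10 Keap1-deleted libraries alone, 256 genes fell and 96 rose. Without the library labelled BAP 2, 720 genes fell and 149 rose, and 9 of the NRF2 targets fell. The Keap1 level of that library lay within the Keap1-wildtype range. With the basal keratinocyte level of each library as a covariate, 2 genes fell and none rose in edgeR, and 1697 genes had an unadjusted p under 0.05. The summed level of these markers did not overlap between BAP and untreated libraries, so this fit cannot tell a BAP effect from a keratinocyte level.

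Basal keratinocyte genes were lower in Keap1-deleted BAP tumours. Of 16 tested, 9 fell and none rose, with a median log2 fold change of -2.67. In 7 the BAP libraries lay wholly below the untreated ones, against 3.54% of all tested genes. Krt14, the keratin partner of KRT5 in basal cells, stood at 824, 1159, 449, 13.0 and 1063 CPM in BAP tumours, against 19819, 11554, 1390, 3336 and 21892 CPM in untreated tumours. Every BAP value lay below every untreated value, with the closest pair being the library labelled BAP 2 and untreated 3. The log2 fold change was -4.05 (SE 0.96, edgeR adjusted p = 0.0228), and the call was lost without untreated 1, untreated 5 or BAP 1. Trp63, which encodes the p63 factor that maintains basal epithelium, stood at 9.53, 20.2, 26.8, 3.86 and 21.5 CPM in BAP tumours, against 317, 201, 39.4, 54.2 and 309 CPM in untreated tumours. It fell by 3.49 on the log2 scale (SE 0.73, edgeR adjusted p = 0.0161), again with no overlap, and stayed called when any single library was left out. Krt5, named after its values were seen, fell by 3.29 (edgeR adjusted p = 0.0367), a call lost in 8 of 10 leave-one-out fits. Lamb3, a chain of the basement membrane protein laminin-332, fell by 3.67, and Itgb4, the integrin subunit of hemidesmosomes, fell by 2.73. Egfr, the epidermal growth factor receptor, had 25.9, 34.7, 34.6, 33.9 and 47.5 CPM in BAP tumours, against 61.7, 64.0, 79.8, 122 and 68.0 CPM in untreated tumours, and fell by 1.16 (SE 0.26, edgeR adjusted p = 0.0187). Its groups did not overlap. The Egfr call was lost without BAP 4, that of Lamb3 without untreated 5 and that of Itgb4 without untreated 1 or untreated 5. Dst, a cytolinker that other tissues also express, had the least negative value of the list at -0.04. Leaving out 1 library gave between 2 and 11 fallen members, the fewest without untreated 5.

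Genes of the suprabasal layers showed larger differences. Of 30 tested differentiation genes, 16 fell, none rose and 29 had a negative log2 fold change (median -4.08). The groups were fully separated for only 1 of them, a share close to the 3.54% of all tested genes that were wholly lower with BAP. Their summed level was 583, 3645, 3826, 41.0 and 1695 CPM in BAP tumours, against 36340, 15155, 732, 7673 and 50544 CPM in untreated tumours. Untreated 3 lay below 3 of the BAP libraries. Tgm1, the transglutaminase that crosslinks the cornified envelope, stood at 5.58, 17.1, 17.5, 2.17 and 12.5 CPM in BAP tumours, against 462, 300.2, 10.5, 73.5 and 571 CPM in untreated tumours (log2 fold change -4.69, SE 0.93, edgeR adjusted p = 0.0149). Its groups overlapped only through untreated 3. Krt13, the keratin of non-cornified oral epithelium, stood at 0.845, 1.21, 2.25, 0.295 and 3.57 CPM in BAP tumours, against 116, 32.9, 2.64, 1642 and 234 CPM in untreated tumours (log2 fold change -7.95, SE 1.80, edgeR adjusted p = 0.0202). The high value of untreated 4 was 1642 CPM, and the call was lost without BAP 4. Elf3, an epithelial transcription factor, fell by 5.09. Flg2, a filaggrin-like protein of cornified skin, was the member with the highest value (1.41, not called), which came from 12.7 CPM in BAP 3 and was -2.46 without that library. Between 3 and 22 members fell when 1 library was left out, with 3 without BAP 4.

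**Figure D1:**
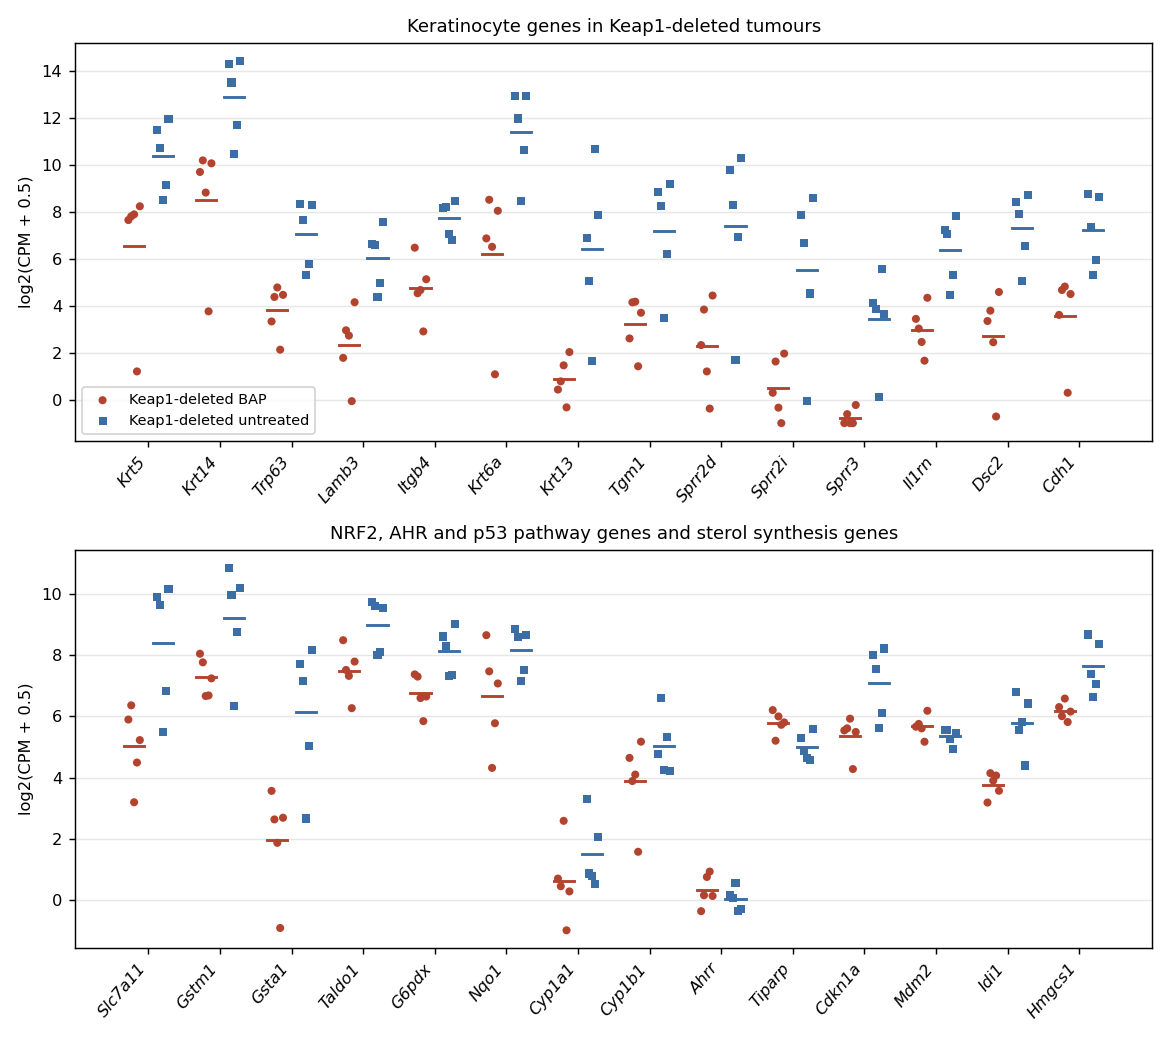
Level of selected genes in each Keap1-deleted library, with BAP at left and untreated at right for every gene, on a scale of log2(CPM + 0.5). The upper panel holds keratinocyte genes and the lower one NRF2, AHR, p53 and sterol genes; each point is 1 library. For Krt14 and Trp63 every BAP point lies below every untreated point.

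The small proline-rich proteins, which are crosslinked into the cornified envelope, formed the most strongly lowered family. Of 16 tested Sprr genes, 14 fell, none rose and all had a negative value (median log2 fold change -5.76). Near-identical copies such as Sprr2a1 and Sprr2a2 share sequence, so the split of reads between copies is uncertain. Sprr3 stood at 0, 0.152, 0, 0 and 0.354 CPM in BAP tumours, against 16.6, 13.9, 0.569, 46.2 and 12 CPM in untreated tumours (log2 fold change -7.46, SE 1.56, edgeR adjusted p = 0.0161). The groups did not overlap, and untreated 3 was again the lowest of its group. Sprr2a2, Sprr2i, Sprr2e and Sprr2a1 fell, with log2 fold changes of -7.44, -6.73, -6.23 and -6.14. Sprr2d stood at 4.50, 13.7, 1.80, 0.268 and 21.0 CPM in BAP tumours, against 872, 311, 2.69, 121 and 1236 CPM in untreated tumours. Only untreated 3 overlapped the BAP range. The Sprr2a1, Sprr2a2, Sprr2d, Sprr2i, Sprr2e and Sprr2f calls were each lost without untreated 1, untreated 5, BAP 1 or BAP 4, that of Sprr2a2 also without BAP 5, and that of Sprr2a1 in 8 of 10 fits with 1 library left out.

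The Sprr2 genes moved together, and the bases before the starts of 4 of them are shown because they share short motifs at like distances. Of 14 Sprr genes with a RefSeq promoter window (GRCm38.p6), 9 held TGANTCA, the letters bound by AP-1 factors, within 250 bases before the start, against 6.75% of 32851 promoter windows. TATAAA, the TATA box, was in 10 of the 14, against 12.37% of all windows, and 9 held both. Both strands were searched, and a match is a description of the letters, not a site of binding. In the windows below, all on the plus strand and read 5′ to 3′, capitals mark TGANTCA and TATAAA. They lie at chr3:92338920-92339139 (Sprr2d), chr3:92364967-92365186 (Sprr2f), chr3:92385465-92385684 (Sprr2h) and chr3:92407771-92407990 (Sprr2i).
Sprr2d: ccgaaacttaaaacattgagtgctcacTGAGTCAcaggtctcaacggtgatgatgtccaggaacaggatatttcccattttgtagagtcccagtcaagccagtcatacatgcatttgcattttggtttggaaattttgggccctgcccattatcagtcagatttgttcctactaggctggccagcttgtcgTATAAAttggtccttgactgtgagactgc
Sprr2f: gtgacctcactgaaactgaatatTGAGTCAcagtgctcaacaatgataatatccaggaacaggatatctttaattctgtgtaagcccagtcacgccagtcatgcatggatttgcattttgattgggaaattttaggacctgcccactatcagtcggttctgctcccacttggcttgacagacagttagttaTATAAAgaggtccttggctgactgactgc
Sprr2h: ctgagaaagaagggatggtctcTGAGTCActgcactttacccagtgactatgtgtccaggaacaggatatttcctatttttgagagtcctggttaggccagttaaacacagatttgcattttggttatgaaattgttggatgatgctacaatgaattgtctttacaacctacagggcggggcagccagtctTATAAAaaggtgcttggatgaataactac
Sprr2i: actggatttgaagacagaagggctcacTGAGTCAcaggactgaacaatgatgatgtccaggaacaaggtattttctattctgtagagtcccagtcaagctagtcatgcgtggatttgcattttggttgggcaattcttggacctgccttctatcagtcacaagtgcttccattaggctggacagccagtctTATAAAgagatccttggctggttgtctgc
In these windows TGANTCA began at -193, -197, -198 and -193 from the start, in the order printed, and TATAAA at -29 in all 4. Sprr2f fell by 5.57 and Sprr2h, like Sprr2d named after its values were seen, fell by 4.96.

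Stress keratins, antimicrobial proteins and epithelial cytokines followed the same direction. Of 14 tested, 12 fell and none rose (median log2 fold change -4.53). Krt6a, a keratin of wounded and oral epithelium, stood at 116, 363, 90.2, 1.61 and 262 CPM in BAP tumours, against 7678, 3993, 346, 1590 and 7742 CPM in untreated tumours. The groups overlapped only between the library labelled BAP 2 and untreated 3 (log2 fold change -4.68, SE 1.08, edgeR adjusted p = 0.0219). Defb4, a beta-defensin, stood at 0, 0.430, 0.268, 0 and 0 CPM in BAP tumours, against 60.9, 52.5, 0.491, 8.06 and 38.2 CPM in untreated tumours. It fell by 7.74 (SE 1.48, edgeR adjusted p = 0.0149) with no overlap and stayed called when any 1 library was left out. Il1a, an epithelial alarmin of the interleukin-1 family, fell by 4.56. The Krt6a call was lost without untreated 1, untreated 5 or BAP 1, and that of Il1a without BAP 4. Il1rn, which encodes the natural antagonist of interleukin-1 receptor and was named after its values were seen, stood at 10.3, 7.63, 4.97, 2.66 and 19.7 CPM in BAP tumours, against 148.5, 131, 21.6, 38.6 and 222 CPM in untreated tumours (log2 fold change -3.63, SE 0.65, edgeR adjusted p = 0.0149). S100a8, a calprotectin chain made by keratinocytes and neutrophils, was not called (-3.01). Of the list, 2 members fell without untreated 1, untreated 5, BAP 1 or BAP 4, and at most 13 fell when another library was left out.

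Cell junctions and epithelial proteases were lower too. Of 20 tested genes of desmosomes, adherens and tight junctions, 14 fell and none rose (median log2 fold change -3.53). For 7 the BAP libraries lay wholly below the untreated ones, against 3.54% of all tested genes. Jup, the plakoglobin of desmosomes and adherens junctions, stood at 112, 176, 118, 44.6 and 66.1 CPM in BAP tumours, against 1855, 986, 151, 425 and 2338 CPM in untreated tumours (log2 fold change -3.48, SE 0.76, edgeR adjusted p = 0.0173). The groups overlapped only through untreated 3. The log2 fold change was -3.81 for the plakophilin gene Pkp3, -4.45 for the desmocollin gene Dsc2 and -3.65 for Cdh1, which encodes E-cadherin, and all 3 calls were lost without untreated 1 or untreated 5. Pkp2, a plakophilin also used outside stratified epithelium, differed in the other direction without being called (7.15 to 23.6 CPM in BAP tumours, against 2.12 to 8.06 CPM in untreated tumours). No member was called by edgeR without untreated 5. Of 23 tested clade B serpins, kallikreins and Spink inhibitors, 13 fell and none rose (median -4.10). Klk14, a trypsin-like protease of shedding epithelium, stood at 0.573, 8.94, 1.71, 0.107 and 2.86 CPM in BAP tumours, against 400.4, 229.7, 7.70, 67.0 and 389 CPM in untreated tumours, and fell by 6.26 (SE 1.31, edgeR adjusted p = 0.0161). Its groups overlapped by the library labelled BAP 2 and untreated 3, and the call stayed when any 1 library was left out. Serpinb6a, a serpin of many cell types, had the highest value of this list (0.94, not called). By family, 7 of 12 kallikrein-related peptidases, 6 of 21 late cornified envelope genes, 11 of 49 keratins and 5 of 9 desmosomal cadherins fell, and none of them rose.

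NRF2 target genes were lower with BAP within the Keap1-deleted genotype. Of 42 tested, 12 fell, none rose and 40 had a negative log2 fold change (median -1.02). The groups were fully separated for 2, a share close to the 3.54% of all tested genes that were wholly lower with BAP. Slc7a11, the cystine transporter that feeds glutathione synthesis, stood at 59.1, 81.8, 8.63, 22 and 36.9 CPM in BAP tumours, against 961, 793, 44.9, 114 and 1150 CPM in untreated tumours. Untreated 3 lay inside the BAP range and the other 4 untreated tumours lay above it (log2 fold change -3.88, SE 0.78, edgeR adjusted p = 0.0155). Gstm1, a glutathione transferase that conjugates reactive metabolites, stood at 265, 218, 101, 103 and 151 CPM in BAP tumours, against 1855, 1009, 80.2, 429.9 and 1184 CPM in untreated tumours (log2 fold change -2.44, edgeR adjusted p = 0.0239), where untreated 3 lay below every BAP library. Gsta1, an alpha-class transferase, fell by 4.70. Abcc4, an efflux pump, stood at 54.9, 50.5, 18.1, 14.8 and 24.5 CPM in BAP tumours, against 111, 149, 73.0, 45.3 and 159.5 CPM in untreated tumours, and fell by 1.73 (edgeR adjusted p = 0.0243). The Abcc4 values overlapped only through untreated 4. The calls of Gstm1, Gsta1 and Abcc4 were lost without untreated 1, untreated 5, BAP 4 or BAP 5, and that of Slc7a11 was kept when any 1 library was left out. Nqo1, a quinone reductase often used as an NRF2 readout and named after its values were seen, stood at 404, 177, 19.4, 54.3 and 135 CPM in BAP tumours, against 462, 389.7, 143, 185 and 404 CPM in untreated tumours. Its groups overlapped and it was not called (-1.0, SE 0.57, edgeR adjusted p = 0.342). Ugdh had the highest value of the list (0.44, not called). The summed level of the list was 17565, 9827, 5556, 6542 and 8987 CPM in BAP tumours, against 24929, 23226, 9750, 11125 and 24310 CPM in untreated tumours. Untreated 1, 2 and 5 were highest in these sums and in the basal keratinocyte sums given above, and the part of keratinocyte content in this result was not tested. Leaving out 1 library gave between 1 and 15 fallen members, and the count was 1 without untreated 1, untreated 5 or BAP 4. None fell with the basal keratinocyte covariate, a fit that cannot tell a BAP effect from a keratinocyte level.

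In the pentose phosphate and NADPH list, which shares members with the NRF2 list, 2 of 12 fell and 11 had a negative value (median -0.56). Over all tested genes 5.16% fell. Taldo1, the transaldolase of the pathway, fell by 1.54, and G6pdx, its entry enzyme, fell by 1.43. G6pdx stood at 166, 157, 96.6, 57.0 and 100 CPM in BAP tumours, against 392, 319, 159, 165 and 517 CPM in untreated tumours (edgeR adjusted p = 0.0334). The groups met only at BAP 1 and untreated 3 and 4, and both calls were lost without untreated 1, untreated 2, untreated 5, BAP 4 or BAP 5.

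No AHR target was called higher at harvest. Of 16 tested AHR genes and targets, 1 fell, none rose and the median log2 fold change was -0.74. Over all tested genes 5.16% fell and 0.943% rose, so a list of this size need not hold a rise. The fallen member was Gsta1, which the NRF2 list also holds. Cyp1a1, the hydroxylase that is the classic AHR target, stood at 1.12, 0.859, 5.49, 0 and 0.707 CPM in BAP tumours, against 9.34, 1.31, 1.21, 0.929 and 3.62 CPM in untreated tumours. The ranges overlapped throughout (log2 fold change -1.0, SE 1.32, edgeR adjusted p = 0.735). Cyp1b1, which also activates BAP, stood at 24.5, 14.3, 16.6, 2.47 and 35.6 CPM in BAP tumours, against 26.5, 96.8, 18.6, 39.4 and 18.2 CPM in untreated tumours (-1.10, edgeR adjusted p = 0.513). Ahrr, the AHR repressor, was below 1.5 CPM in all 10 libraries, and Tiparp, an ADP-ribosyltransferase induced by AHR, was not called at 0.78 (36.4 to 73.3 CPM in BAP tumours, against 23.4 to 48.1 CPM in untreated tumours, edgeR adjusted p = 0.181). Fmo2, the member with the highest value (1.94, not called), rested on 144 CPM in BAP 1 and was -0.95 without it. The RefSeq window of Cyp1a1 before its start (GRCm38.p6, chr9:57697393-57697612, plus strand, read 5′ to 3′) is shown because this gene is the standard readout of AHR activity. Capitals mark GCGTG, the core letters bound by AHR with its partner ARNT, at -54 and TATAAA at -30.
Cyp1a1: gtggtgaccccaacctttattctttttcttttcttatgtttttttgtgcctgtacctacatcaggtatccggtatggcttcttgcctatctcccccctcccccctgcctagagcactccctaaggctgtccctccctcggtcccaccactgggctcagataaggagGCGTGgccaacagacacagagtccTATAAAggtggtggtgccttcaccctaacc
GCGTG on either strand was in 28.16% of all promoter windows. The match in Cyp1a1 is a description of the letters, not a site of AHR binding.

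Some p53 targets fell and edgeR called no DNA repair gene in these tumours, which all carried floxed Trp53. Of 24 tested p53 targets, 3 fell and none rose (median log2 fold change -0.05), where 5.16% of all tested genes fell. Cdkn1a, the p21 inhibitor of cyclin-dependent kinases, stood at 46.1, 48.3, 60.3, 18.9 and 44.5 CPM in BAP tumours, against 256, 189, 48.8, 68.5 and 298 CPM in untreated tumours (log2 fold change -1.98, SE 0.48, edgeR adjusted p = 0.0244). The groups overlapped at BAP 3 and untreated 3. Perp, a p53 and p63 target of desmosomes that the junction list also holds, fell by 3.58, and Btg2, an antiproliferative gene, fell by 1.45. Each of these 3 calls was lost without untreated 1, untreated 5, BAP 1 or BAP 4. Mdm2, the ubiquitin ligase of p53, was not called (0.35, SE 0.27, edgeR adjusted p = 0.512). Of 38 tested DNA damage and repair genes, edgeR called none, DESeq2 called 1 and limma-voom 7, and 4 had an unadjusted edgeR p under 0.05. The list median was 0.20, with 25 members above 0. The members of smallest p were Chek1, the checkpoint kinase, at 0.76 and Nbn, a subunit of the MRN complex, at 0.50, neither called in edgeR.

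Sterol synthesis was lower across the pathway. Of 24 tested genes, 11 fell, none rose and 23 had a negative log2 fold change (median -1.16). For 5 the BAP libraries lay wholly below the untreated ones, against 3.54% of all tested genes. Idi1, the isomerase of isopentenyl diphosphate, stood at 8.57, 17.2, 14.4, 16.2 and 11.3 CPM in BAP tumours, against 111, 46.1, 55.7, 20.5 and 85.2 CPM in untreated tumours (log2 fold change -2.23, SE 0.49, edgeR adjusted p = 0.0178). All BAP values lay below all untreated values. Hmgcs1, which makes the precursor of mevalonate, stood at 78.6, 63.8, 95.4, 55.9 and 70.9 CPM in BAP tumours, against 409.9, 168, 99.6, 134 and 333 CPM in untreated tumours, also without overlap (-1.65, edgeR adjusted p = 0.0221). Dhcr7, the last reductase of cholesterol synthesis, fell by 1.64, and Lss, the lanosterol synthase, fell by 1.53. None of the list fell without untreated 1 or without untreated 5, and 18 fell at most when another library was left out; DESeq2 gave 19. Of 23 tested fatty acid genes, 5 fell and none rose (median -0.75). They included Fabp5, the keratinocyte fatty acid binding protein, at -3.26, and Lpl, the lipoprotein lipase, which stood at 43.3, 12.7, 11.1, 24.0 and 34.2 CPM in BAP tumours, against 270.4, 236, 91.1, 131 and 136 CPM in untreated tumours (-2.79, edgeR adjusted p = 0.0278). Lpl did not overlap between groups, and its call was lost in 7 of 10 fits with 1 library left out.

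Growth factor genes that keratinocytes express fell in several pathways. Over all tested genes 5.16% fell. Of 14 tested genes of the EGFR family and its ligands, 6 fell and none rose (median log2 fold change -1.65). Among ligands, Tgfa stood at 1.78, 3.46, 3.47, 0.349 and 4.69 CPM in BAP tumours, against 50.1, 38.2, 5.97, 6.41 and 68.0 CPM in untreated tumours, without overlap (-3.61, SE 0.82, edgeR adjusted p = 0.0202), and Epgn, the epigen gene, fell by 3.28. Among receptors, Erbb3 fell by 2.77 and Egfr by 1.16. No member fell without BAP 4. Of 47 tested Wnt pathway genes, 7 fell and none rose (median -0.76). Wnt4 stood at 11.9, 8.77, 6.36, 1.23 and 12.5 CPM in BAP tumours, against 141, 99.8, 12.9, 55.4 and 188 CPM in untreated tumours, without overlap (-3.61, SE 0.76, edgeR adjusted p = 0.0161). The ligand genes Wnt10a, Wnt3a and Wnt7a fell, with -2.06, -4.22 and -6.03, and Sfrp1, a secreted Wnt inhibitor, fell by 2.99. Wnt4 stayed called when any 1 library was left out, and such fits gave between 1 and 9 fallen members, the fewest without untreated 1, untreated 5 or BAP 4.

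In the Notch list, 3 of 19 fell and none rose (median -0.56): the ligand gene Dll1 (-2.14) and the target genes Nrarp (-2.61) and Heyl (-2.22). Dll1 stood at 2.20, 4.75, 3.24, 1.96 and 8.05 CPM in BAP tumours, against 16.9, 29.0, 7.99, 11.7 and 23.7 CPM in untreated tumours, and overlapped by 1 pair of libraries, BAP 5 and untreated 3. In the TGF-beta, activin and BMP list, 3 of 35 fell and none rose (median -0.12), close to the 5.16% of all tested genes that fell. These were the ligand gene Bmp7 (-3.25), the BMP target Id1 (-2.05) and the inhibitory Smad gene Smad6 (-1.34). Smad6 stood at 3.26, 4.50, 2.81, 3.86 and 4.69 CPM in BAP tumours, against 8.10, 15.7, 6.28, 9.92 and 8.41 CPM in untreated tumours, without overlap (edgeR adjusted p = 0.0277). Of these 6 calls, that of Dll1 stayed when any 1 library was left out, and the others were lost without untreated 1 or untreated 5.

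**Figure D2:**
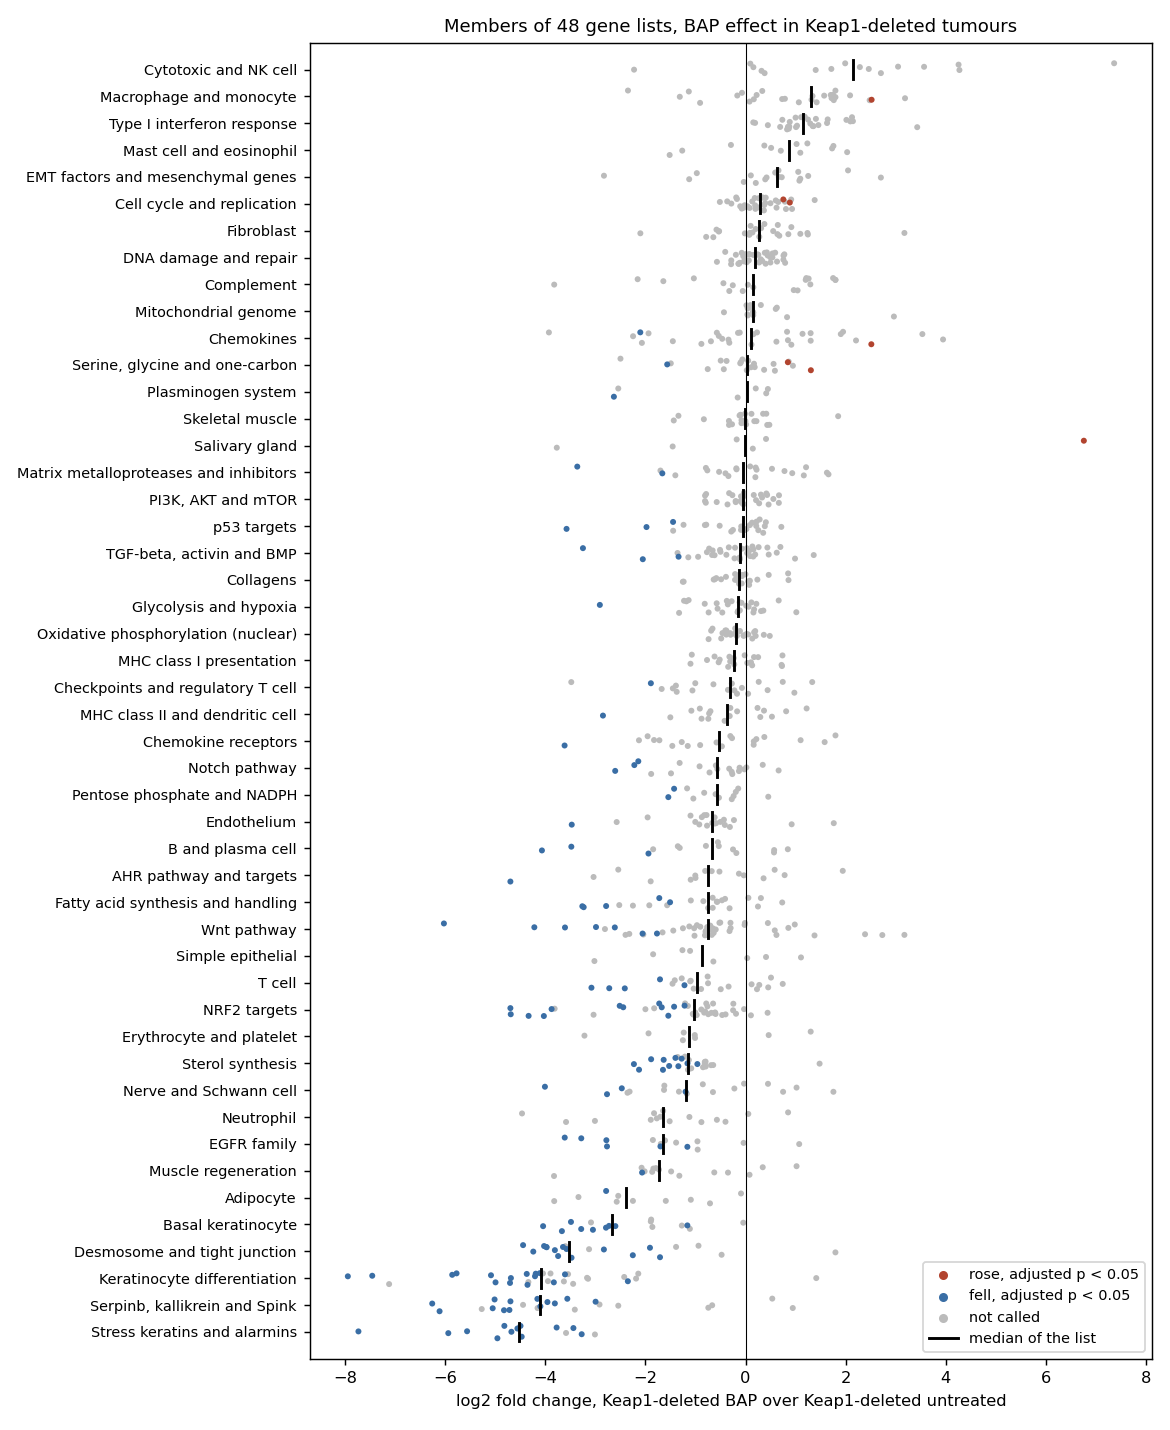
Log2 fold change of Keap1-deleted BAP over Keap1-deleted untreated tumours for the tested members of 48 gene lists. Each point is 1 gene, coloured where edgeR called it, and the bar is the list median. The keratinocyte lists have medians between -4.53 and -2.67, against -0.02 over all 19202 genes.

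Macrophage genes leaned upward. The summed level of 27 tested macrophage and monocyte genes was 14500, 8973, 12242, 11107 and 14683 CPM in BAP tumours, against 5912, 7467, 8096, 6963 and 3407 CPM in untreated tumours. Every BAP sum exceeded every untreated sum. The list median was 1.32, 21 members had a positive value and 9 were wholly higher in BAP libraries, against 2.4% of all tested genes. Yet edgeR called 1, Cd163, where 0.943% of all tested genes rose, and 11 had an unadjusted p under 0.05. Cd163, the haemoglobin scavenger receptor, stood at 14.3, 11.5, 20.4, 11.5 and 8.08 CPM in BAP tumours, against 3.78, 2.49, 1.45, 2.97 and 0.776 CPM in untreated tumours (log2 fold change 2.52, SE 0.72, edgeR adjusted p = 0.0418). That call was lost in each of 10 leave-one-out fits, where the fold change ranged from 2.30 to 2.77. C1qb, a chain of complement C1q, stood at 836, 305, 629.6, 402 and 580 CPM in BAP tumours, against 93.1, 168, 207, 276 and 73.4 CPM in untreated tumours, without overlap, and was not called (1.75, edgeR adjusted p = 0.213). Folr2, a folate receptor of resident macrophages, had the highest value at 3.19 and Arg1, the arginase that keratinocytes also express, the lowest at -2.35, neither called. The summed keratinocyte markers were lower in the same 5 BAP libraries, and the part of this in the macrophage values was not tested. C1qb was -0.01 with the basal keratinocyte covariate, a fit that cannot tell a BAP effect from a keratinocyte level.

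Other immune genes went both ways. Of 31 chemokines, 1 rose and 1 fell (median 0.12), where 0.943% of all tested genes rose and 5.16% fell. Ccl6, a chemokine of macrophages and other myeloid cells, stood at 196, 56.7, 286, 90.8 and 61.9 CPM in BAP tumours, against 21.9, 46.8, 21.2, 23 and 7.99 CPM in untreated tumours (log2 fold change 2.52, SE 0.65, edgeR adjusted p = 0.0292). Its groups did not overlap, and the call was lost without untreated 1, untreated 5, BAP 1, BAP 3 or BAP 4. Cxcl14, a chemokine of normal epithelium, fell by 2.10, and Ackr4, a scavenging receptor for chemokines, stood at 1.39, 0.783, 1.42, 0.537 and 1.36 CPM in BAP tumours, against 6.55, 33.4, 10.9, 12.8 and 3.91 CPM in untreated tumours (-3.62, edgeR adjusted p = 0.0207). The Ackr4 values did not overlap, and the call was lost without untreated 2 or BAP 4. Of 22 T cell genes, 5 fell and none rose (median -0.96), among them Trdc, the constant region of the delta chain, at -3.08, Cd5 at -2.41 and Trbc2 at -1.22. Bcl11b, a T cell factor that basal keratinocytes also express, stood at 5.49, 6.82, 6.05, 8.50 and 4.80 CPM in BAP tumours, against 59.7, 38.0, 11.9, 23.1 and 76.8 CPM in untreated tumours (-2.72, edgeR adjusted p = 0.0149). Trdc stood at 3.56, 1.19, 0.908, 1.13 and 1.56 CPM in BAP tumours, against 9.90, 35.5, 8.12, 5.66 and 11.4 CPM in untreated tumours. Neither gene overlapped, and 1 T cell gene fell without BAP 4.

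Itgax, which encodes CD11c of dendritic cells and macrophages, was the fallen member of the class II and dendritic cell list (1 of 18, median -0.37). It stood at 3.35, 3.84, 6.05, 6.20 and 19.1 CPM in BAP tumours, against 65.0, 101, 18.7, 52.8 and 40.0 CPM in untreated tumours, and overlapped only by BAP 5 and untreated 3 (-2.85, SE 0.60, edgeR adjusted p = 0.0161). Cd274, which encodes PD-L1, was the fallen member of the checkpoint list (1 of 20, median -0.31). The fallen shares of both lists were close to the 5.16% of all tested genes that fell. The following values are those of Cd274. Cd274 stood at 5.79, 2.40, 1.94, 0.778 and 3.57 CPM in BAP tumours, against 9.49, 17.6, 8.55, 5.46 and 12.6 CPM in untreated tumours (-1.89, edgeR adjusted p = 0.0221), with 1 overlapping pair, and the call was lost without untreated 1, 2 or 5 or BAP 4. In the B and plasma cell list 3 of 14 fell: Ighg2c (-4.07), Igha (-3.48) and Sdc1 (-1.94). Sdc1 encodes syndecan-1, which keratinocytes also express, and stood at 262, 279, 192, 100.2 and 172 CPM in BAP tumours, against 1063, 736, 464, 650.5 and 944 CPM in untreated tumours (SE 0.31, edgeR adjusted p = 0.0146). Sdc1 did not overlap and stayed called when any 1 library was left out.

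A single tumour carried most of the high interferon and cytotoxic values. The summed level of 28 tested type I interferon response genes was 2708, 226, 269, 303 and 321 CPM in BAP tumours, against 172, 274, 414, 679 and 147 CPM in untreated tumours. BAP 1 lay apart, and the other 4 BAP tumours lay within the untreated range. All 28 members had a positive fitted log2 fold change (median 1.15), whereas the median was -0.49 without BAP 1; edgeR called none, 2 had an unadjusted p under 0.05, and DESeq2 called 1. Ifi27l2a, an interferon-induced mitochondrial protein, had 234 CPM in BAP 1 and 1.79 to 24.1 CPM in the other 9 libraries. Stat2, a subunit of the interferon response factor, differed by 1.01, not called. The 19 listed genes of cytotoxic and NK cells, 16 of them tested, summed to 183, 10.9, 25, 13.4 and 12.2 CPM in BAP tumours, against 16, 35.1, 25.5, 16.1 and 11.9 CPM in untreated tumours. Gzmd, a granzyme, had 35.9 CPM in BAP 1 and at most 0.455 CPM in any other of the 10. For this list edgeR and DESeq2 called no member, limma-voom called 3, and 4 had an unadjusted edgeR p under 0.05. BAP 1 was also the library with the most salivary gland RNA, given below, and the part of that in these values was not tested.

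Among matrix enzymes and vessels, few genes of each list fell, where 5.16% of all tested genes fell. Of 22 metalloproteases and inhibitors, 2 fell and none rose (median -0.04). Mmp12, the macrophage elastase, stood at 10.9, 17.8, 3.94, 10.6 and 51.1 CPM in BAP tumours, against 274, 224, 152, 165 and 155.5 CPM in untreated tumours (log2 fold change -3.36, SE 0.69, edgeR adjusted p = 0.0161). All BAP values lay below all untreated values, in the same libraries in which the summed macrophage genes were higher. Mmp15, a membrane-type metalloprotease, fell by 1.66 without overlap. Serpine2, the protease nexin that inhibits thrombin and plasminogen activators, stood at 132, 71.6, 47.8, 38.3 and 63.1 CPM in BAP tumours, against 202, 567, 978, 292 and 148 CPM in untreated tumours (-2.63, SE 0.54, edgeR adjusted p = 0.016), without overlap. Serpine2 was the fallen member of 6 tested genes of the plasminogen system. Mmp12, Mmp15 and Serpine2 stayed called when any 1 library was left out. Selp, the P-selectin of activated endothelium, was the fallen member of 21 endothelial genes (-3.47, list median -0.66), with 0.634, 1.92, 5.86, 0.697 and 2.74 CPM in BAP tumours, against 24.6, 63.2, 19.9, 8.42 and 16.2 CPM in untreated tumours. The Selp values did not overlap, and the call was lost without BAP 4. Of 18 nerve and Schwann cell genes 4 fell, including L1cam (-2.47) and Mal (-4.01), both also made by epithelial cells. Summed levels of 25 fibroblast markers overlapped widely, from 9624 to 23783 CPM in BAP tumours, against 2804 to 32475 CPM in untreated tumours, and edgeR and DESeq2 called none (limma-voom 1, unadjusted edgeR p under 0.05 for 2). Skeletal muscle markers summed to 32.8 to 1859 CPM in BAP tumours, against 224 to 2456 CPM in untreated tumours. In 16 of the 48 lists edgeR called no member, and 39 of their 321 tested members had an unadjusted p under 0.05.

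Few genes of cell division were called. Of 34 tested cell cycle genes, 2 rose, none fell and 25 had a positive value (median 0.30), where 0.943% of all tested genes rose. Cdk1, the mitotic kinase, stood at 92.8, 79.0, 70.1, 58.4 and 101 CPM in BAP tumours, against 43.9, 42.1, 69.4, 30.7 and 51.4 CPM in untreated tumours (log2 fold change 0.76, SE 0.20, edgeR adjusted p = 0.0292). Its groups overlapped only through untreated 3. Ccna2, the cyclin of S and G2 phase, rose by 0.89 with no overlap. Both were lost without untreated 1, 2 or 5, BAP 1 or BAP 5. Outside the list, the following genes were chosen after their values were seen, for low spread within groups. Ezh2, the histone methyltransferase of Polycomb complex PRC2, stood at 29.0, 44.6, 48.4, 47.3 and 51.6 CPM in BAP tumours, against 28.2, 21.2, 28.9, 23.3 and 26.1 CPM in untreated tumours (0.79, SE 0.17, edgeR adjusted p = 0.0161). Cenpa, the centromeric histone, stood at 61.0, 68.2, 61.8, 102 and 80.3 CPM in BAP tumours, against 38.0, 33.3, 39.2, 33.7 and 46.9 CPM in untreated tumours (0.97, SE 0.21). Ska1, a kinetochore protein, rose by 1.55, Smc4, a condensin subunit, by 0.94 and Exosc8, an RNA exosome subunit, by 0.95. Every BAP value exceeded every untreated value for Ezh2, Cenpa, Ska1, Smc4 and Exosc8. By family, 20 of 21 centromere protein genes had a positive value and 1 rose, whereas of 36 kinesin genes 2 fell and none rose (median -0.02), and 27 of 54 histone genes had a positive value. Ezh2, Ska1 and Exosc8 stayed called when any 1 library was left out, Cenpa was lost without BAP 4 and Smc4 without BAP 4 or untreated 1.

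The serine, glycine and one-carbon list had 2 rises and 1 fall among 22 genes (median 0.04). Over all tested genes 0.943% rose and 5.16% fell. Phgdh, the entry enzyme of serine synthesis, stood at 269, 274, 347, 316 and 353 CPM in BAP tumours, against 215, 129, 182, 158 and 184 CPM in untreated tumours (log2 fold change 0.85, SE 0.21, edgeR adjusted p = 0.0251). The groups did not overlap. Aldh1l1, a folate dehydrogenase, fell by 1.57 on the log2 scale. Both calls were lost without untreated 1, 2 or 5, BAP 4 or BAP 5, and that of Aldh1l1 also without BAP 3. In the glycolysis and hypoxia list, Car12, a hypoxia-induced carbonic anhydrase, was the fallen gene of 28 (-2.91, list median -0.15). The fallen share of this list did not exceed the 5.16% of all tested genes that fell.

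The steadiest difference in either direction was that of Sema4d, chosen after its values were seen. Sema4d encodes a semaphorin that signals through plexin-B receptors. It stood at 26.8, 20.1, 14.3, 18.8 and 27.0 CPM in BAP tumours, against 85.6, 89.5, 73.0, 69.0 and 119.5 CPM in untreated tumours. The groups were far apart in every library, including untreated 3 and 4 (log2 fold change -2.03, SE 0.22, edgeR adjusted p = 0.000162), and it was called under all 21 alternatives tried. Epas1, which encodes HIF-2 alpha, stood at 24.8, 35.5, 42.7, 18 and 24.8 CPM in BAP tumours, against 95.6, 177, 88.8, 64.1 and 134 CPM in untreated tumours (-1.94, SE 0.29, edgeR adjusted p = 0.011). Among rises, S100a6, a calcium-binding protein of proliferating cells, stood at 1303, 1211, 1050, 1019 and 1177 CPM in BAP tumours, against 272, 240, 441, 430.1 and 219.5 CPM in untreated tumours (1.85, SE 0.34, edgeR adjusted p = 0.0149). S100a10, the annexin A2 partner, stood at 1031, 431, 498, 694 and 529.7 CPM in BAP tumours, against 169, 173.5, 265, 282 and 149.5 CPM in untreated tumours (1.62, SE 0.35, edgeR adjusted p = 0.0168). Neither overlapped, and both were chosen after their values were seen. Epas1 and S100a6 stayed called when any 1 library was left out, and S100a10 was lost without untreated 1 or untreated 5. In the S100 family 2 of 16 rose and 3 fell, where 0.943% of all tested genes rose and 5.16% fell.

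**Figure D3:**
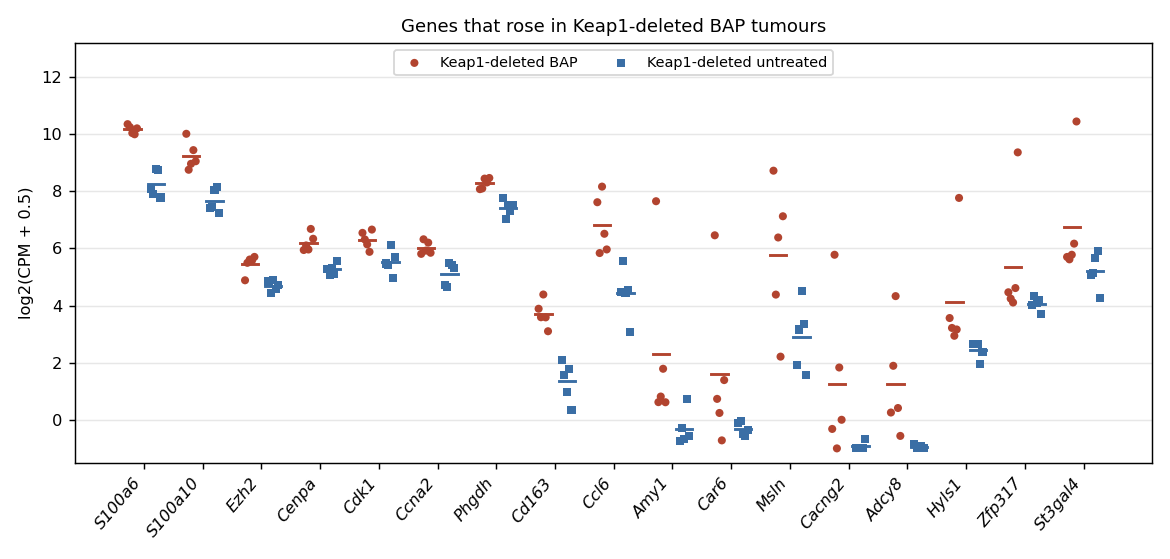
Level of genes that rose in Keap1-deleted BAP tumours, in each of the 10 libraries, on a scale of log2(CPM + 0.5), with BAP at left and untreated at right. S100a6, with 1019 to 1303 CPM in BAP tumours and 219.5 to 441 CPM in untreated tumours, is high in all 5 BAP libraries, whereas Amy1 and Hyls1 are high in 1.

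The largest rises mostly belonged to single libraries. Amy1, the salivary amylase, stood at 200.5, 1.04, 1.26, 2.95 and 1.03 CPM in BAP tumours, against 0.0931, 0.322, 0.129, 1.17 and 0.181 CPM in untreated tumours (log2 fold change 6.76, and 2.04 without BAP 1). Car6, a secreted carbonic anhydrase of saliva, had 87.4 CPM in BAP 1 and at most 2.12 CPM elsewhere (5.83, and 1.67 without BAP 1). The summed salivary gland markers were 3899, 113, 79.9, 61.8 and 212 CPM in BAP tumours, against 150.4, 108, 194, 196 and 130 CPM in untreated tumours. Dnase1 and Apela, the ligand of the apelin receptor, were likewise highest in BAP 1 (36.0 and 14.5 CPM). Adcy8, an adenylate cyclase, rose by 7.54 with 0.694, 3.21, 19.6, 0.832 and 0.177 CPM in BAP tumours, against at most 0.062 CPM in untreated tumours. Cacng2, a calcium channel subunit, had 54.3 CPM in the library labelled BAP 2 and at most 3.06 CPM in the other 9. Msln, which encodes mesothelin, stood at 421, 20.4, 82.9, 4.13 and 139 CPM in BAP tumours, against 3.29, 8.44, 22.1, 9.65 and 2.46 CPM in untreated tumours (3.86, SE 1.11, edgeR adjusted p = 0.0436). The calls of Amy1, Car6, Apela and Dnase1 were lost without BAP 1, untreated 1 or untreated 5. That of Adcy8 was lost without untreated 1, 2 or 5, that of Cacng2 in 9 of 10 fits with 1 library left out, and that of Msln in 8 of 10.

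BAP 5 carried a block of very high genes on chromosome 9. Counting genes at least 8 times higher in a library than in any other of the 10, BAP 5 had 20, of which 17 lay on chromosome 9, against 13 in BAP 1, 8 in BAP 3, and 1 each in BAP 4 and the library labelled BAP 2. Part of the block held Yap1, the Hippo pathway coactivator (chr9:7931999-8004596, GRCm38), at 2562 CPM against at most 158 CPM elsewhere, with its neighbours Birc2 and Birc3, inhibitors of apoptosis, at 786 and 572 CPM. Other genes of the block lay at chr9:35046576-35119268 (St3gal4, a sialyltransferase) and at chr9:19622102-19649731 (Zfp317), 1391 and 657 CPM in BAP 5. Of 19 genes on chromosome 9 that rose, 11 met this 8-fold rule in BAP 5. Among the genes named for the size of their rise, Cfap300, Cep126, Hyls1, Zfp317 and St3gal4 belonged to the block, with log2 fold changes of 3.89, 3.78, 3.32, 3.16 and 3.04. Without BAP 5 these were 1.01, 0.86, 0.82, 0.29 and 0.52, and none was called. Yap1, Birc2 and Birc3 were chosen after their values were seen.

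Chromosome 3 held more rises than its share of genes. Of 990 genes tested there, 36 rose (3.636%), against 0.943% of all genes, and for 85 (8.586%) all BAP libraries exceeded all untreated ones, against 2.4%. The median log2 fold change was 0.27, against -0.02 over all genes, although chromosome 3 also carries the lowered Sprr genes. For each library, the median deviation of chromosome 3 genes from the mean of the 5 untreated libraries, less that of all genes, was 0.13, 0.19, 0.34, 0.37 and 0.31 (log2) in BAP tumours, against 0.04, -0.06, -0.10, -0.02 and 0.16 in untreated tumours. Only BAP 1 lay below the highest untreated value. S100a6, S100a10, Smc4 and Exosc8 lie on chromosome 3. The next counts were 21 rises on chromosome 15, 19 on chromosome 9 and 12 on chromosome 4. Copy number was not measured, and its part in these values was not tested.

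**Figure D4:**
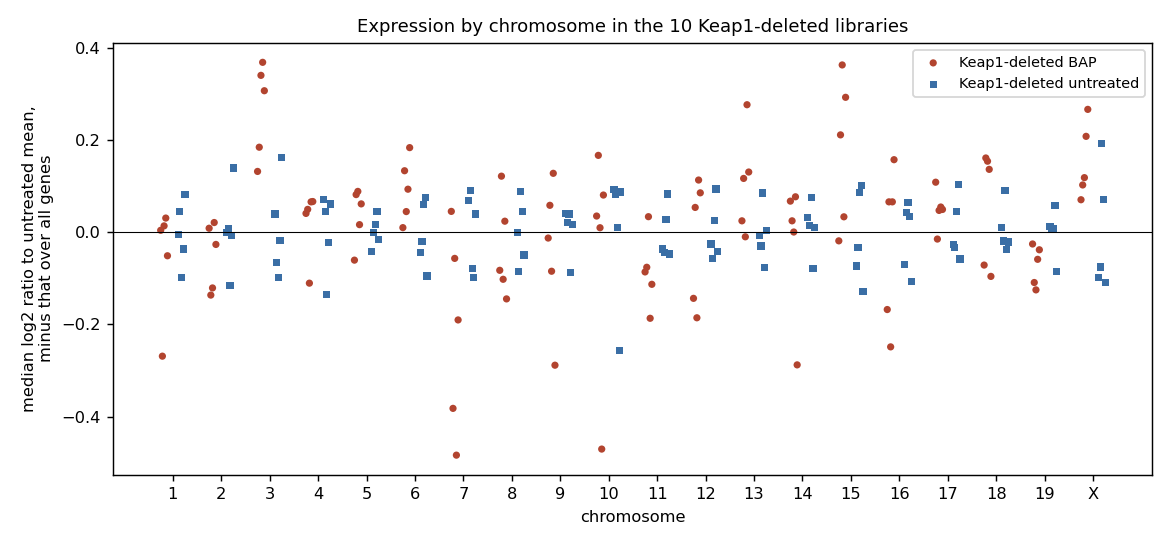
Median deviation of the genes of each chromosome from the mean of the 5 Keap1-deleted untreated libraries, less the median over all genes (log2), with 1 point for each library, BAP at left and untreated at right. Chromosome 3 is high in BAP tumours, from 0.13 to 0.37, against -0.10 to 0.16 in untreated tumours.

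The genes with the largest falls were mostly epithelial. Csn1s1, a casein, had no count in any BAP library, against 3.13, 17.0, 0, 1.35 and 0.854 CPM in untreated tumours, at least 286-fold lower by group means with a floor of 3 counts over the BAP group (0.0156 CPM). Krt42, a keratin, fell by 7.59, with 0.603, 1.67, 0.949, 0 and 4.07 CPM in BAP tumours, against 834, 78.3, 397, 21.2 and 76.1 CPM in untreated tumours. Its groups did not overlap, and untreated 3 was among the high libraries. Cldn17, a claudin, fell by 6.12. Gad1, a glutamate decarboxylase, fell by 6.76, with 18.7 CPM in untreated 3 and at most 0.268 CPM in any other library, and was -1.37 without that library. The calls of Csn1s1, Krt42 and Cldn17 were lost without untreated 1, untreated 5, BAP 1, BAP 4 or BAP 5.

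The response differed from that of tumours with Keap1. In Keap1-wildtype tumours, 6 with BAP and 6 without, edgeR called none of 19202 genes (0%), with 2622 at an unadjusted p under 0.05 and a smallest adjusted p of 0.1447. In the test of the difference between responses, Keap1-deleted minus Keap1-wildtype, 475 genes were higher (2.47%) and 858 lower (4.47%), 6.94% in all. Keratinocyte lists had positive medians in Keap1-wildtype tumours: differentiation genes had -4.08 in Keap1-deleted and 0.83 in Keap1-wildtype tumours, and 17 of 30 differed between responses, all lower. Desmosome and tight junction genes had -3.53 and 0.70, with 13 of 20 lower, and sterol genes -1.16 and 0.54, with 17 of 24 lower. NRF2 targets had -1.02 and 0.21, with 9 of 42 lower. Macrophage genes had 1.32 and -2.41, with 14 of 27 higher, and interferon genes 1.15 and -2.42, with 5 of 28 higher. The interferon median in Keap1-deleted tumours turned to -0.49 without BAP 1, whereas the macrophage median was 1.34. This comparison also rested on single libraries: leaving out 1 of the 22 gave between 0 and 989 higher and between 1 and 1320 lower genes, with the lowest counts without Keap1-deleted untreated 1, 2 or 5 or Keap1-deleted BAP 4. Keap1-wildtype untreated 6 held 87.7 CPM of the macrophage gene Siglec1, against at most 2.55 CPM in the others of its group. It also had the lowest Klk14 of that group, 0.648 CPM. The part of this library in the Keap1-wildtype list medians was not tested.

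Among single genes, Klk14 fell in Keap1-deleted tumours, whereas in Keap1-wildtype tumours it ranged from 92.4 to 377 CPM with BAP (median 299) and from 0.648 to 218 CPM without it (median 73.2). The difference between responses was -7.82 (edgeR adjusted p = 0.0291). Defb4 had 17.8 to 56.5 CPM in Keap1-wildtype BAP tumours and 0.233 to 35 CPM in Keap1-wildtype untreated tumours (difference -8.83, edgeR adjusted p = 0.0283). The response of Krt13 differed by -8.37, of Sprr3 by -8.28, of Sprr2a2 by -8.21 and of Cldn17 by -8.02. In the other direction, Siglec1, the sialoadhesin of macrophages, stood at 107, 31.0, 44.8, 26.5 and 54.6 CPM in Keap1-deleted BAP tumours, against 0.807, 2.98, 8.22, 7.22 and 1.03 CPM in Keap1-deleted untreated tumours. In Keap1-wildtype tumours it was at most 0.382 CPM with BAP and had a median of 0.631 CPM without it, with 1 library at 87.7 CPM. Its difference was 10.31 (edgeR adjusted p = 0.0291), while its response within Keap1-deleted tumours was not called (3.70, edgeR adjusted p = 0.135). Vsig4, a complement receptor of macrophages, ranged from 1.59 to 20.4 CPM in Keap1-deleted BAP tumours, against 0.129 to 0.402 CPM in Keap1-deleted untreated tumours, and was at 0 in all 6 Keap1-wildtype BAP libraries. In Keap1-wildtype untreated tumours Vsig4 had 4.74 CPM in 1 library and 0 in the others. Gria4, a glutamate receptor subunit, and Agtr2, an angiotensin receptor, reached 20.1 and 48.2 CPM in Keap1-deleted BAP 1. Agtr2 and Gria4 were both at 0 in all Keap1-wildtype BAP libraries. In Keap1-wildtype untreated tumours Gria4 had at most 2.54 CPM and Agtr2 at most 0.855 CPM. S100a6, which rose in Keap1-deleted tumours, had 192 to 298 CPM in Keap1-wildtype BAP tumours and 203 to 968 CPM in Keap1-wildtype untreated tumours (difference 2.59, edgeR adjusted p = 0.0262). Sema4d had 63.4 to 108 CPM in Keap1-wildtype BAP tumours and 51.2 to 95.0 CPM in Keap1-wildtype untreated tumours (difference -2.19, edgeR adjusted p = 0.00434). Cdkn2a, the p16 and p19ARF locus, stood at 999.9, 779, 408, 1045 and 652 CPM in Keap1-deleted BAP tumours, against 87.7, 179, 519, 526 and 178 CPM in Keap1-deleted untreated tumours, not called within Keap1-deleted tumours (1.38, edgeR adjusted p = 0.0939) but different between responses (2.30, edgeR adjusted p = 0.04).

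**Figure D5:**
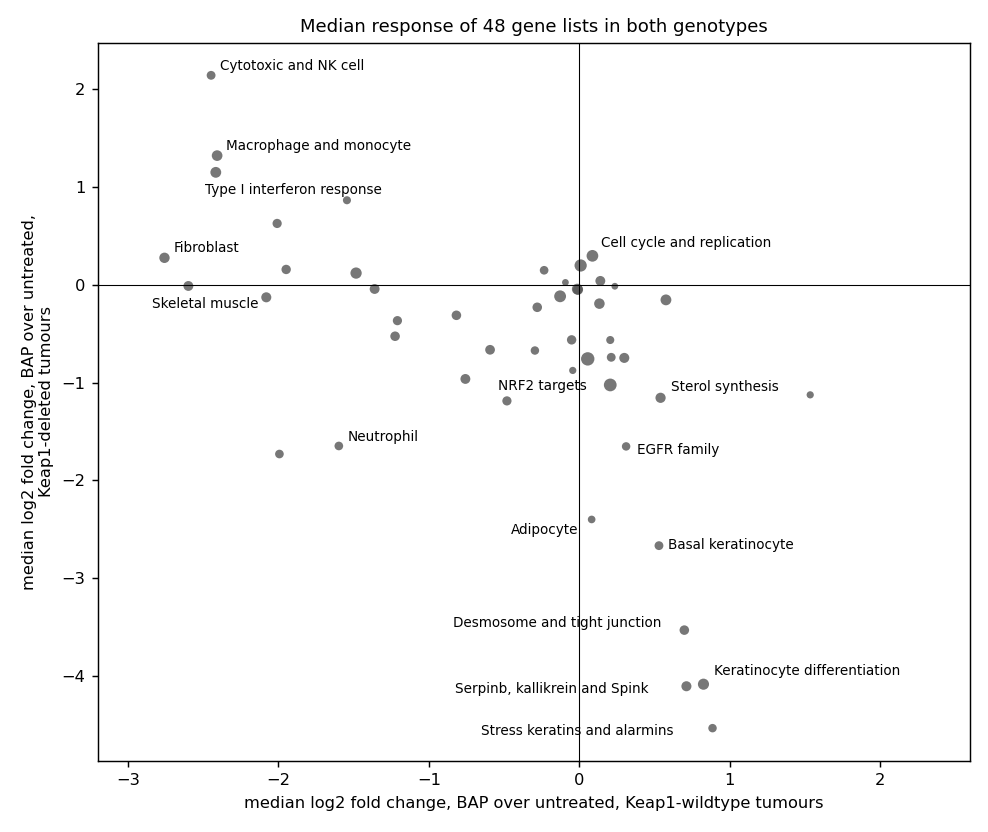
Median log2 fold change of BAP over untreated tumours for each of 48 gene lists, in Keap1-deleted tumours (vertical axis) against Keap1-wildtype tumours (horizontal axis); each point is 1 list. Keratinocyte lists lie below 0 in Keap1-deleted and above 0 in Keap1-wildtype tumours, and the macrophage list lies the other way. The interferon list does so only with BAP 1, since its median in Keap1-deleted tumours is -0.49 without that library.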

How the data were processed

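Bulk RNA-seq of primary mouse tumours was analysed: 5 Keap1-deleted BAP, 5 Keap1-deleted untreated, 6 Keap1-wildtype BAP and 6 Keap1-wildtype untreated libraries, grouped by genotype and treatment in the labels. Per the labels' protocols, total RNA was extracted from pulverised tumours and sequenced as Illumina paired ends. The deposited files hold, for each library and gene ID, an expected count that the authors made with RSEM per the file names; every deposited expected count was a whole number. The sources used here do not give an aligner, build or annotation. Symbols and positions came from GENCODE M21 (GRCm38): 52125 of 56748 IDs matched, holding 99.412% of counts.

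Counts were analysed with edgeR 4.0.16 (R 4.3.3): filterByExpr with a minimum count of 10, which kept 19202 genes, TMM scaling, and 1 robust quasi-likelihood model over all 22 libraries with a term per group. Contrasts were BAP minus untreated in Keap1-deleted tumours and that response minus the Keap1-wildtype one. Adjusted p-values are Benjamini-Hochberg values over all genes tested, called under 0.05. On simulated data with these means and library sizes, the test recovered 71 of 100 genes changed 4-fold and 87 of 100 changed 16-fold. It called 10 unchanged genes among the 19202 simulated. Each gene was drawn independently, without shifts shared between genes of a library, so these rates need not hold in the tumours. Same-group libraries were checked for duplication: the chi-square per degree of freedom was at least 87.3 in 20 pairs, so none was merged.

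A total of 48 lists (1017 genes, 967 tested) are described by counts and medians. The comparison, members and lists were chosen with earlier results of these data known. Named genes were the targeted genes; Cyp1a1, Cyp1b1, Ahrr, Tiparp, Cdkn1a and Mdm2; the 12 called genes of largest change in each direction, with a mean of at least 1 CPM; up to 4 called members per list and its extremes; and up to 6 genes per direction for the difference between genotypes. Genes outside this rule are marked in the text, and some genes inside it are not reported here.

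Alternatives were DESeq2 1.42.0 size factors or test, limma-voom (limma 3.58.1) with sample weights, library totals, 2 other low-count filters, only the 10 libraries compared, covariates (an R suffix in sample titles, skeletal muscle or basal keratinocyte level) and each library left out in turn. A covariate for the Y-linked gene Ddx3y was added after the data were seen. Intervals and floors cover counting error only; a floor of 3 counts over the Keap1-deleted BAP group is 0.0156 CPM.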

Additional observations from a re-analysis of the deposited data

Results flagged for a closer look

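Single libraries stood apart from the others of their group in 37 of 288 checks over the genes and lists named here (13%), and 25 of these were in BAP tumours. Chance gives about 1 in 20 for normally distributed values, but CPM values are skewed, some groups hold mostly 0, and some genes were named for a high value in 1 library, so the share is not set against that rate. The check sets the gap between the highest or lowest library and its neighbour against the whole range of the 5. BAP 1 stood apart with 200.5 CPM of Amy1, 87.4 of Car6, 14.5 of Apela, 36.0 of Dnase1, 144 of Fmo2, 234 of Ifi27l2a, 3.56 of Trdc and 35.9 of Gzmd. Its summed interferon genes (2708 CPM), cytotoxic and NK genes (183 CPM) and salivary gland genes (3899 CPM) also stood apart. BAP 5 stood apart with 245 CPM of Cfap300, 49.3 of Cep126, 217 of Hyls1, 657 of Zfp317 and 1391 of St3gal4, all on chromosome 9, and with 300.3 CPM of S100a8 and 19.1 of Itgax. BAP 3 did so for Trp53 (110 CPM), Cyp1a1 (5.49), Adcy8 (19.6) and Flg2 (12.7), and the library labelled BAP 2 for Cacng2 (54.3), Sprr2a2 (0.935) and Cldn17 (0.177). Among untreated tumours, untreated 5 stood apart for Trp53 (11.9 CPM), Cacng2 (0.129) and Flg2 (3.78), and untreated 2 for Cyp1b1 (96.8), Csn1s1 (17.0) and Trdc (35.5). Untreated 4 did so for Amy1 (1.17 CPM), Apela (0.360), Krt13 (1642) and Gzmd (0.210), and untreated 3 for Gad1 (18.7) and Agtr2 (0.982).

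The response to BAP also differed between genotypes for 77 of 134 named genes in edgeR's test of the difference (adjusted p under 0.05 over all genes). Of all tested genes 6.94% differed, but many genes were named for being called, so the shares are not comparable. The 77 leave out genes at 0 in every library of a group, some of which, such as Vsig4 and Gria4, were also called. Values are log2 fold changes with BAP in Keap1-deleted minus those in Keap1-wildtype tumours, where no gene was called in Keap1-wildtype tumours alone. Among keratinocyte and epithelial genes it was -4.79 for Krt14, -8.37 for Krt13, -5.56 for Krt6a, -4.07 for Trp63, -4.48 for Lamb3, -3.26 for Itgb4, -5.41 for Tgm1, -5.94 for Elf3, -8.28 for Sprr3 and -8.21 for Sprr2a2. It was -7.02 for Sprr2d, -7.38 for Sprr2e, -6.77 for Sprr2f, -6.05 for Sprr2h, -7.60 for Sprr2i, -7.82 for Klk14, -8.83 for Defb4, -5.51 for Il1a, -4.27 for Il1rn and -5.41 for Mal. For junction genes the difference was -4.32 for Jup, -4.52 for Pkp3, -5.58 for Dsc2, -4.35 for Cdh1, -4.35 for Perp and -8.02 for Cldn17. NRF2, p53 and metabolic genes had -4.28 for Slc7a11, -5.67 for Gsta1, -2.04 for Abcc4, -1.72 for Taldo1, -1.94 for G6pdx, -2.83 for Cdkn1a, -3.15 for Idi1, -2.0 for Dhcr7, -2.12 for Hmgcs1 and -2.12 for Lss. It was -3.82 for Fabp5 and -2.96 for Car12. Growth factor and other signalling genes had -1.32 for Egfr, -4.67 for Tgfa, -2.22 for Dll1, -3.40 for Nrarp, -3.56 for Bmp7, -2.56 for Id1, -1.64 for Smad6, -4.01 for Wnt4, -2.87 for Wnt10a and -4.49 for Wnt3a. It was -2.52 for L1cam, -2.19 for Sema4d and -2.23 for Epas1. Among lower immune and matrix genes it was -2.99 for Bcl11b, -3.24 for Cd5, -1.58 for Trbc2, -2.45 for Sdc1, -4.40 for Mmp12 and -2.29 for Mmp15. Higher macrophage and interferon genes had 3.67 for Cd163, 8.87 for Folr2, 4.54 for C1qb, 10.31 for Siglec1, 3.58 for Ccl6, 6.26 for Ifi27l2a and 2.42 for Stat2. The remaining higher genes had 7.73 for Amy1, 4.70 for Dnase1, 6.54 for Msln, 4.02 for Cfap300, 3.42 for Hyls1, 4.04 for St3gal4, 2.30 for Cdkn2a, 2.59 for S100a6 and 2.21 for S100a10. It was 1.03 for Cenpa, 1.25 for Exosc8, 1.55 for Ska1 and 1.06 for Smc4. Genes at 0 in every library of a group, such as Vsig4, have no bounded difference and are given by their levels only. A difference past the threshold rested on single libraries as described for the counts.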

How the results depend on the processing

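The number of genes called with BAP in Keap1-deleted tumours moved by more than 1.5 times under several settings, though no called gene changed sign except with the basal keratinocyte covariate, where 295 of 1172 did. Risen genes were 181 as reported, 275 with library totals, 475 with DESeq2, 1358 with limma-voom, 34 without a filter, 96 in the 10 libraries alone, 357 with the R suffix and 0 with the basal keratinocyte covariate. Fallen genes were 991 as reported, 1627 with DESeq2, 1847 with limma-voom, 364 without a filter, 256 in the 10 libraries alone and 2 with the basal keratinocyte covariate. DESeq2 size factors, the filter at 1 CPM, the skeletal muscle covariate and the Ddx3y covariate, chosen after seeing the data, stayed within 1.5 times. Leaving out 1 library gave 20 to 263 risen and 161 to 1334 fallen genes. For the difference between genotypes, 475 genes were higher as reported, 1102 with library totals, 1407 with DESeq2, 27 without a filter and 1302 with the R suffix, and 858 were lower as reported, 1557 with DESeq2, 84 without a filter and 1719 with the R suffix. Leaving out 1 library gave 0 to 989 higher and 1 to 1320 lower genes. The cause of these movements was not tested.

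Signs turned with the basal keratinocyte covariate for Keap1 (-0.35), Nfe2l2 (0.14), Pik3ca (0.11), Cyp1a1 (1.01), Ahrr (-0.97), Krt14 (0.13), Krt5 (0.65), Dst (0.34), Sprr2f (0.17), Pkp3 (0.17), Cdh1 (0.12), Serpinb6a (-0.0146), Gsta1 (1.52), Nqo1 (0.41), Perp (0.58), Fabp5 (0.32), Tgfa (0.37), Erbb3 (0.85), Epgn (0.14), Nrarp (0.25), Bmp7 (0.0898), Wnt3a (0.0185), Arg1 (1.48), C1qb (-0.0145), Mal (0.27) and Sprr2h (1.02). Krt14 and Dst are themselves among the markers that make up this covariate. Signs turned with limma-voom for Flg2 (-1.11) and Fmo2 (-0.0797). Without 1 library, Keap1 ranged from -0.42 to 0.30, Trp53 from -0.22 to 1.01, Flg2 from -2.46 to 3.14 and Fmo2 from -0.95 to 2.24. Values near 0 of Keap1 and Dst, neither of them called, also changed sign under other settings, to at most 0.11. The other log2 fold changes of named genes kept their sign under every setting run.

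No paired analysis was possible because the sample titles carry no replicate number shared between groups, and the numbers used here follow the order of deposition. Genes at or under a few counts per library could not be compared at this depth.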

Other observations

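Gene families were also counted by symbol, and 5.16% of all tested genes fell. The 77 cytosolic ribosomal protein genes had a median log2 fold change of 0.09 and the 39 proteasome subunits one of 0.02. Of 54 histone genes 1 rose (median 0.00), and of 44 cytochrome P450 genes 4 fell and none rose (median -0.91). Of 20 aldehyde dehydrogenases 4 fell and none rose (median -0.27), and of 23 glutathione transferases 6 fell and none rose (median -1.06). Of 14 genes matched as Hox by symbol, 1 of them antisense, 10 had a positive value (median 1.19). Other single-library genes outside the blocks described above included Dlk1, an imprinted growth regulator, with 489 CPM in BAP 3 against at most 7.10 CPM in any other of the 10. Muc5b, a mucin of salivary glands, had 68.1 CPM in BAP 1 against at most 0.310 CPM elsewhere. Acan, the cartilage proteoglycan aggrecan, had 269 CPM in untreated 4 against at most 21.2 CPM elsewhere. These genes were chosen after their values were seen.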
